A study of Mus musculus with 2 samples.

Results

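Nuclear receptors are transcription factors, most of which are switched by small fat-soluble ligands such as steroids, thyroid hormone, retinoids, oxysterols and bile acids. Most bind DNA as dimers at copies of a hexamer related to AGGTCA, and recruit coactivators or corepressors according to the ligand that is bound. In skeletal muscle they are known for the control of fibre metabolism, of fibre type and of protein breakdown. The genes described here are 39 members of this family, chosen by family name with no threshold on a measured value, of 21938 protein-coding genes in the annotation. They were sorted by ligand and function into 11 role groups. Another 10 receptor genes, 18 coregulator genes and 20 genes for ligand supply and receptor chaperones were used for comparison.

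DNase-seq reads accessible chromatin from the ends of fragments that DNase I cuts out of nuclei. It was applied to the gastrocnemius, a calf muscle, of male B6CASTF1/J mice aged 25 days, which are F1 hybrids of C57BL/6J and CAST/EiJ, with no treatment named. There is 1 group of 2 libraries, labelled biological replicates 1 and 2, whose biosample descriptions number different males although both carry the same donor identifier. Whole muscle holds myofibres, satellite cells, fibroblasts, vessels, nerve and blood, and in such bulk tissue fewer cells of a type and less opening per cell cannot be told apart. No contrast between conditions exists, so no test was made, and all values are descriptions set beside the same measure over all protein-coding genes.

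Replicate 1 was the deeper library, with 97499 peaks and 243784 footprints against 61664 peaks and 171389 footprints in replicate 2. Signals came in whole steps, which read as 169 M and 117 M tags, with 1 tag worth 0.00592 and 0.00855. A signal is therefore given below as tags per 1000000 of the library, the highest within the peak as the authors list it. All 8 muscle fibre markers examined, all 6 of endothelium and all 4 of fibro-adipogenic cells showed a peak at a promoter in each library. Of the other lists 1 of 2 satellite cell markers, 1 of 5 macrophage and leukocyte markers, 1 of 4 adipocyte markers and 0 of 5 hepatocyte markers had one, while 4 of 4 neuronal markers did, at signals of 0.349 to 2.22. Of 3 steroidogenic markers 1 did, Star, at 0.716 and 0.675.

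A promoter was taken as the 1 kb on either side of every annotated start of a gene. A promoter peak was present in 30 of the 39 receptor genes in replicate 1 and in 31 in replicate 2, against 66.5% and 64.2% of all protein-coding genes. In both libraries it was present in 30, or 76.9% (Wilson 95% interval 61.7 to 87.4%, counting error only), against 63.0% of all genes. At the 5′ end of the gene alone it was present in 23, or 59.0%, against 58.5% of all genes. The steroid, inducible, retinoid, thyroid and vitamin D, COUP-TF and testicular, ROR and PPAR, and NR5 and NR6 groups had one in every member examined. The genes without a promoter peak in either library were Nr2e1, Nr2e3, Nr1h4, Nr1i2, Nr1i3, Hnf4a, Hnf4g and Nr0b2. Nr0b1 (DAX1, known from adrenal gland and gonad) had one in replicate 2 alone, with a signal of 0.205.

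The strongest promoter peak had a median signal of 3.91 over the 30 receptor genes with one in replicate 1 and of 2.76 over the 31 in replicate 2, Nr0b1 included. Over all genes with a peak the medians were 3.57 and 3.44, and the receptor genes stood at median percentiles of 53.4 and 40.3. A promoter footprint, a short stretch protected from cutting within open chromatin, was listed for 30 receptor genes in each library, against 64.9% and 62.7% of all genes. For 27 of the 39 at least 1 promoter footprint overlapped between the libraries, against 57.9% of all genes.

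**Figure D1:**
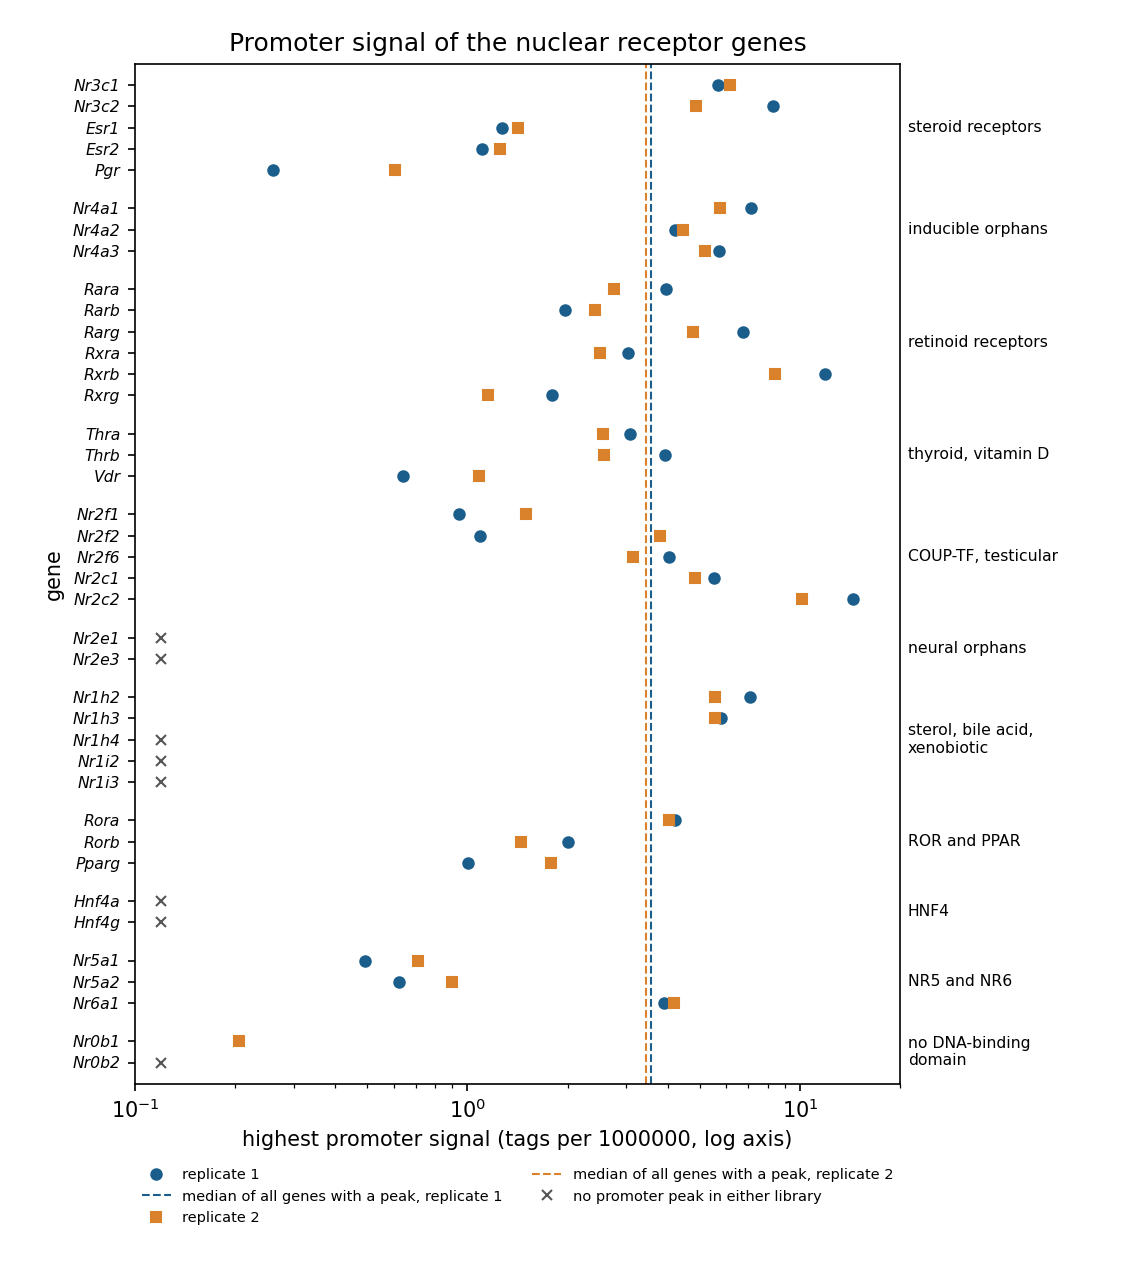
Highest promoter signal (tags per 1000000, log axis) of the 39 nuclear receptor genes in replicate 1 (circles) and replicate 2 (squares), by role group; dashed lines are the medians over all genes with a promoter peak, and crosses mark genes with no promoter peak in either library. Nr2c2 and Rxrb lie farthest to the right, and Pgr and Nr0b1 farthest to the left among genes with a peak.

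The strongest single promoter peak of the family belonged to Nr2c2, which encodes TR4, an orphan receptor first described in testis. With the peak signals of a promoter summed, Nr3c1 (21.5) and Rarg (17.9) exceeded Nr2c2 (15.7) by the mean of the libraries. The Nr2c2 peak had a signal of 14.5 in replicate 1 and 10.2 in replicate 2, or 12.3 ± 3.04 (SD, n = 2), at percentiles of 99.7 and 98.8 among genes with a promoter peak. The peak lies 0.881 kb inside the 5′ end of the gene and 162 bases before the start of an annotated transcript. Its reference sequence is shown because footprints of both libraries split it into separate protected stretches, given in capitals (mm10, chr6:92092161-92092380, plus strand). It holds 1 GC box, a match to GGGCGG on either strand, inside the fourth of the 5 stretches.
Nr2c2 promoter peak: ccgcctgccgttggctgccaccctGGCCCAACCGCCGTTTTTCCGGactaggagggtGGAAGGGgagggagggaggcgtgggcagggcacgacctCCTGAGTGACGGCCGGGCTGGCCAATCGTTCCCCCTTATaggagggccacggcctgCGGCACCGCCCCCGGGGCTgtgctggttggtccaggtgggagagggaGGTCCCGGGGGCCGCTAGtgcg

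Further sequences carry results described below and are given here with the matched motif in capitals. Nr4a1 encodes an orphan receptor that nerve activity and exercise induce in muscle, and MEF2 is a muscle transcription factor that binds an AT-rich site. An MEF2 match was found at both of its main promoters, the upstream one at chr15:101254049-101254108 and the internal one at chr15:101266556-101266615 (mm10, plus strand). Of the shared promoter peaks of all genes, 0.439% held an MEF2 match in the 300 bp around the peak centre. Footprints covered 5 bases of the upstream match in replicate 1 and 0 in replicate 2, and 0 bases of the internal match in either library.
Nr4a1 upstream promoter: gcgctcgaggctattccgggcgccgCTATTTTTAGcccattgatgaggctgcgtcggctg
Nr4a1 internal promoter: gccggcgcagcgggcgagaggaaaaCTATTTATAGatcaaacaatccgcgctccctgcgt

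Rarb encodes retinoic acid receptor beta, which retinoic acid is known to induce through a site in its own promoter. A direct repeat of the receptor hexamer, here GGTTCA followed by AGTTCA, with 5 bases between the copies lay in its promoter peak at chr14:16575507-16575535 (mm10, minus strand), 22 bases inside the nearest annotated start. Of 21426 shared promoter peaks of all genes, 12 (0.0560%) held such a repeat in the 300 bp around the peak centre. The Rarb repeat was in that window and not in the 150 bp one, and no base of it lay in a footprint of either library.
Rarb promoter repeat: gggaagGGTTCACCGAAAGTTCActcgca

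Rxrg encodes retinoid X receptor gamma, the form of this shared dimer partner that is known for its place in skeletal muscle. Its promoter peak held the only match among receptor gene promoters to AAAGGTCA, the site that NR4A receptors bind as monomers (mm10, chr1:167618155-167618202, plus strand). Of all shared promoter peaks, 0.373% held this octamer within the central 150 bp. Footprints covered 0 of its bases in replicate 1 and 6 in replicate 2.
Rxrg promoter octamer: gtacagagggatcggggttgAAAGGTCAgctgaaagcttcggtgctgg

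Within the steroid receptors, the genes for the receptors of adrenal steroids had promoter signals several times those of the sex steroid receptor genes. Nr3c1, the glucocorticoid receptor, had 5.66 in replicate 1 and 6.18 in replicate 2, and Nr3c2, the mineralocorticoid receptor, had 8.29 and 4.88. Both genes were above the median of all promoters in both libraries. Esr1 and Esr2, the estrogen receptors, had 1.27 and 1.42, and 1.11 and 1.26. The Esr2 peak is centred at -752 and -712 bases from the start in replicates 1 and 2, and with windows of 500 bp the mean of the libraries was 0.543 in place of 1.18. Pgr, the progesterone receptor, was the weakest of the 30 genes with a peak in both libraries, at 0.260 and 0.607.

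The orphan receptors of the NR4A family, which are immediate early genes with no known hormone, all lay above the median of genes with a promoter peak. Nr4a1 had 7.11 in replicate 1 and 5.76 in replicate 2, Nr4a2 had 4.20 and 4.45, and Nr4a3 had 5.69 and 5.18. The order Nr4a1, Nr4a3, Nr4a2 was the same in both libraries. Nr4a3 and Nr4a1 did not overlap in range, and neither did Nr4a2 and Nr4a3, although no test of this order was made. With a window of 2.5 kb Nr4a3 had 6.76 and 5.92, so that it exceeded Nr4a1 in replicate 2 and the ranges of the 2 genes overlapped.

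The retinoid receptor genes spanned most of the range of the family. Among the 39 genes, Rxrb, a retinoid X receptor made in most tissues, had the second highest signal, 11.9 in replicate 1 and 8.44 in replicate 2. Its peak also lies within 1 kb of starts of Slc39a7 and Gm20427. Among the receptors of retinoic acid, Rarg had 6.76 and 4.79 (mean 5.77, or 3.38 with windows of 500 bp) and Rara had 3.95 and 2.76. Rxra, the most studied dimer partner, had 3.05 and 2.51. Rarb had 1.97 and 2.43, and Rxrg had 1.80 and 1.15. Rxrg was thus the weakest retinoid promoter in both libraries, although it is the form known for muscle. Apart from Rarb, each of these genes had the higher signal in replicate 1.

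Thyroid hormone acts on muscle through the products of Thra and Thrb. Thra had 3.08 in replicate 1 and 2.56 in replicate 2, and Thrb had 3.92 and 2.57. The 2 genes were closer to each other in replicate 2 than either was to its own value in replicate 1. Vdr, the vitamin D receptor, was lower than both in each library, at 0.639 and 1.09.

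Among the COUP-TF and testicular orphans, Nr2c1 (TR2, the relative of TR4) had 5.52 in replicate 1 and 4.85 in replicate 2. Nr2f6 (EAR2) had 4.05 and 3.15, and Nr2f1, a COUP-TF gene known from the developing nervous system, had 0.941 and 1.50. The Nr2f1 peak is also within 1 kb of a start of A830082K12Rik. Nr2f2, the COUP-TF gene known for veins and mesenchyme, had 1.09 and 3.79, the widest gap between the libraries in the family as a ratio. A replicate 1 peak of signal 4.55 lies inside the replicate 2 peak but is centred 1.21 kb from the nearest start, and did not reach the promoter as defined. With a window of 2.5 kb the Nr2f2 signals were 4.55 and 3.79.

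The sterol-sensing receptors and the receptors of bile acids and xenobiotics fell on opposite sides. Nr1h2 and Nr1h3, the liver X receptors that sense oxysterols, had 7.07 in replicate 1 with 5.57 in replicate 2, and 5.81 with 5.57. The Nr1h3 peak is also within 1 kb of starts of Acp2 and Gm13783. Nr1h4 (the bile acid receptor FXR), Nr1i2 (the xenobiotic receptor PXR) and Nr1i3 (CAR) had no promoter peak. The Hnf4a and Hnf4g genes, receptors known from liver, gut and kidney, had none either, as was the case for the 5 hepatocyte markers. Nr0b2 (SHP, a partner of FXR that lacks a DNA-binding domain) and the neural and retinal orphans Nr2e1 and Nr2e3 completed the set without one.

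Absence of a peak did not always mean absence of listed cutting. The per-position q-value fell below 0.05 within the promoter of 2 of the 9 receptor genes without a peak in replicate 1 and of 0 of 8 in replicate 2, against 2.81% and 2.69% of all genes without one. For Nr2e1 the lowest q-value was 0.0332. For Nr2e3 it was 3.944e-08, next to an intronic peak 1.17 kb from a start with signals of 2.70 and 1.38.

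Of the remaining groups, Rora, a circadian orphan receptor, had 4.20 in replicate 1 and 4.03 in replicate 2, and its relative Rorb, known from retina and brain, had 2.01 and 1.45. Pparg, the master regulator of fat cell formation, had 1.01 and 1.79. Of the adipocyte markers, Plin1 alone had a promoter peak, at 0.964 and 1.22, and Adipoq, Cidec and Lep had none. Nr6a1 (GCNF, known from germ cells and early embryos) had 3.90 and 4.19. The NR5 genes Nr5a1 (SF-1, of steroid-making glands) and Nr5a2 (LRH-1) were near the bottom, at 0.491 and 0.709, and 0.621 and 0.897. The Nr5a1 peak of replicate 1 is also within 1 kb of a start of Nr5a1os. Nr5a1 and Nr5a2 lay at or below the 11th percentile in both libraries.

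Of the 10 comparison receptors, 9 had one in both libraries, the exception being Nr1h5. The metabolic receptor Esrra had 13.3 in replicate 1 and 7.72 in replicate 2, and the fatty acid receptor Ppard had 9.52 and 6.84, while Ppara had 5.46 and 4.10. The clock repressors Nr1d1 and Nr1d2 had 12.6 with 9.32, and 11.4 with 6.71. Esrrb and Esrrg, relatives of Esrra, had 0.497 with 0.983, and 0.609 with 1.03. All 18 coregulator genes did, led by Carm1 (13.4 and 8.90), Ncoa2 (10.8 and 8.11) and Ncoa4 (9.39 and 7.48). Of 20 ligand supply and chaperone genes 13 did, led by the chaperone genes Hsp90aa1 (10.1 and 8.56), Hsp90ab1 (8.79 and 8.34) and Fkbp5 (9.33 and 6.90).

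Many receptor genes have several promoters, and the most open one was often not at the 5′ end of the gene. In 17 of the 30 receptor genes with a peak in both libraries, or 56.7%, the strongest promoter peak lay over 1 kb from the 5′ end in both, against 11.5% of all such genes. The receptor genes had a median of 6 annotated starts and all genes had 5. Among genes with 5 or more starts in the longest of 4 equal classes of gene length, the count was 10 of 13 receptor genes (76.9%) against 599 of 2847 genes. The receptor genes thus had the larger share among genes of like length and number of starts too. The strongest peaks of the libraries overlapped in 26 of the 30 genes, against 93.7% of all genes, the exceptions being Rara, Nr2f2, Nr2f6 and Nr5a1.

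The 17 genes came from most role groups: Nr3c1, Nr3c2, Esr1, Pgr, Nr4a1, Rara, Rarb, Rarg, Rxra, Rxrg, Thra, Vdr, Nr2f2, Rora, Nr5a1, Nr5a2 and Nr6a1. In Nr3c1 the open promoters formed a cluster 27.7 to 32.4 kb inside the gene, with 5 joined peaks, and no peak stood at its 5′ end. The highest of them had 5.66 in replicate 1 and 6.18 in replicate 2, and its neighbour at 29.3 kb had 5.40 and 4.19. Nr3c1 is known to have many alternative first exons, several of them close together.

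In Rora the strongest site was 636 kb from the 5′ end, at the start of a short transcript, with 4.20 in replicate 1 and 4.03 in replicate 2. The site at the 5′ end had 1.18 and 2.56. In Esr1 the peak 98.5 kb inside had 1.27 and 1.42, and the highest peaks at the 5′ end had 0.556 and 0.598. Rarb had a single promoter region, 244 kb inside the gene, and none at the start of its longest form. That region also lies within 1 kb of a start of Gm48162. The 5′ ends of these long genes thus had no peak or a weaker one than an internal start in both libraries.

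In Nr4a1 the internal promoter, 12.5 kb inside the gene, had 7.11 in replicate 1 and 5.76 in replicate 2, and the upstream one had 3.61 and 2.25. In Rarg the site 10.4 kb inside had 6.76 and 4.79, and the site at the 5′ end had 1.17 and 1.52. In Nr3c2 the site 2.68 kb inside had 8.29 and 4.88 and the one at 0.269 kb had 2.13 and 1.88. In each of these 3 genes the ranges of the internal and the upstream site did not overlap.

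**Figure D2:**
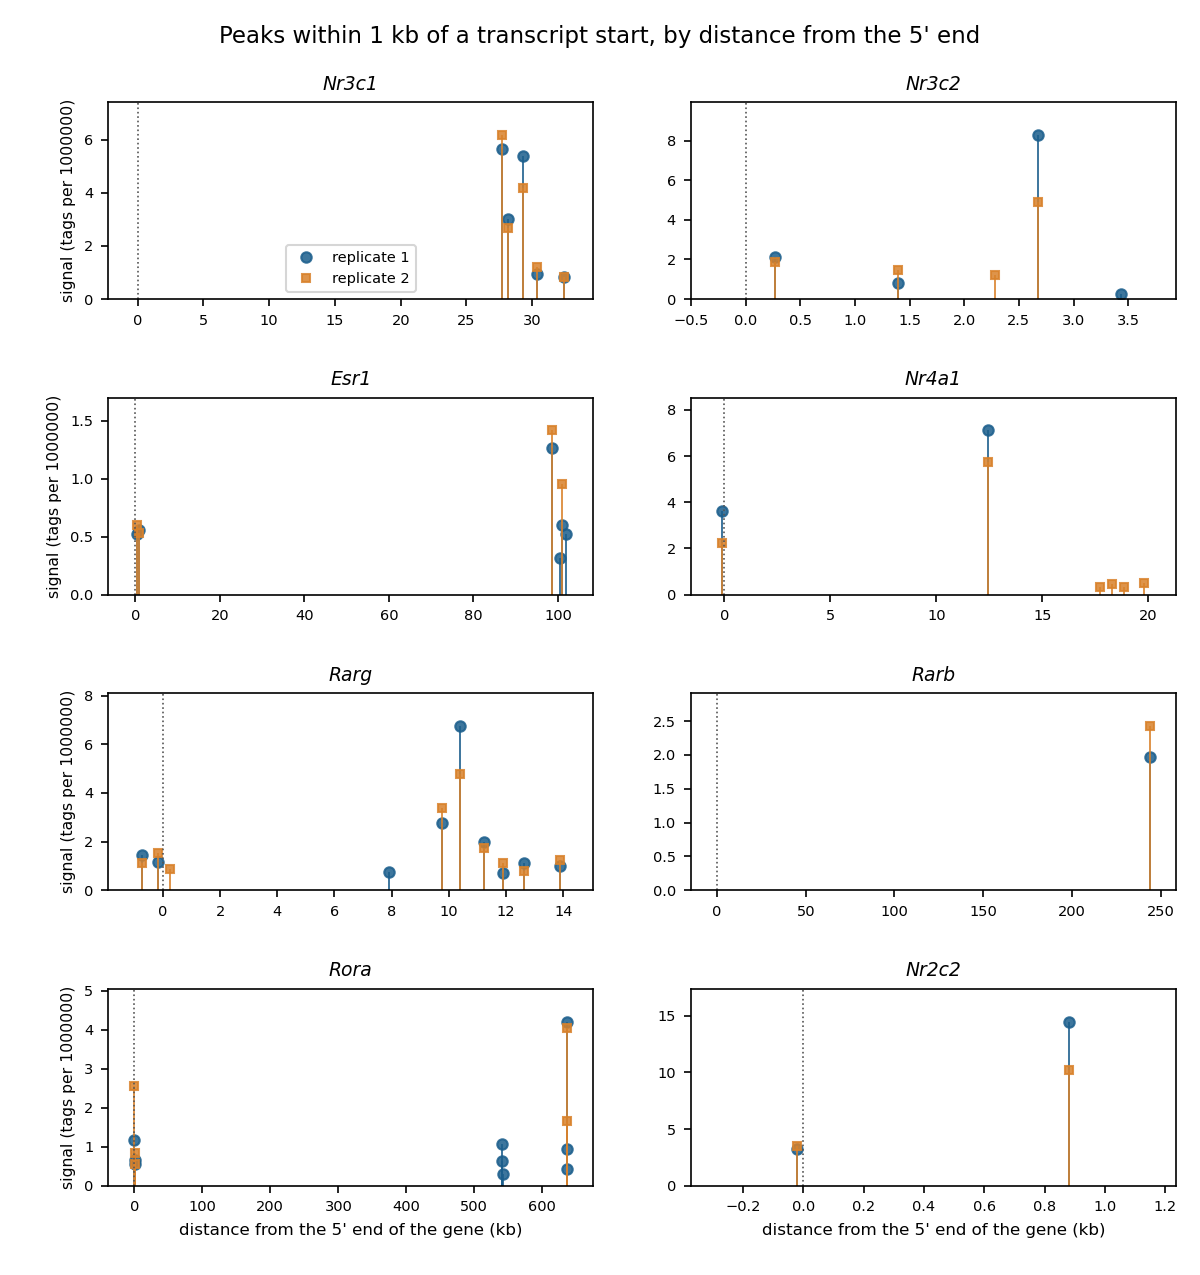
Signal (tags per 1000000) of each peak within 1 kb of a transcript start against its distance from the 5′ end of the gene (kb, dotted line at 0), for 8 receptor genes; circles are replicate 1 and squares replicate 2, joined where peaks of both libraries overlap. In all 8 the tallest peak of both libraries stands to the right of the 5′ end, from 0.881 kb in Nr2c2 to 636 kb in Rora.

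The CpG content of the region around the 5′ end (1 kb on either side) was compared for genes with a peak in both libraries. The median ratio of observed to expected CpG was 0.547 in receptor genes, somewhat below the 0.607 of all such genes. The median GC content was 53.8% in each. The ratio was above 0.6 in 11 of 30 receptor genes, or 36.7%, against 51.5% of all genes with a peak. This difference was not tested. Rarb had a ratio of 0.0772 and Nr3c1 of 0.223, and both had their open promoter far inside the gene. Rora and Rxra, whose strongest promoter peak also lay far inside, had higher ratios of 0.751 and 0.723. A relation between the ratio and the place of the strongest peak was not tested. Of the 8 receptor genes without a peak, Nr2e1, a gene of neural stem cells, alone exceeded 0.6 (0.767), while 2.81% of all genes without a peak did.

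Distal peaks were those over 1 kb from any annotated start, counted from 20 kb upstream to 20 kb downstream of the gene. The receptor genes had 286 of them in replicate 1 and 190 in replicate 2, and 111 of the replicate 1 peaks overlapped one of replicate 2. At least 3 distal peaks were found near 23 receptor genes in replicate 1 and 13 in replicate 2, against 37.7% and 21.2% of all genes. At least 3 shared ones were found near 11, or 28.2%, against 16.3% of all genes. Receptor genes are long: 21 of 39 were in the longest of 4 equal classes (over 45.1 kb). Within that class 6 of 21 had at least 3 shared distal peaks, against 32.5% of all genes of the class. In the next longest class the count was 4 of 9 against 15.1% of all genes, and in the one below it 1 of 6 against 10.6%. In the shortest class it was 0 of 3 against 7.11%. Only in the next longest class, of 9 receptor genes, did the count stand well above the share of all genes. In the other classes it was near that share, and those of 6 and 3 receptor genes are too small to compare. No difference between classes was tested.

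Of the 355 joined distal sites near receptor genes, 108 were present in both libraries, 170 in replicate 1 alone and 77 in replicate 2 alone. Those in both were stronger, with a median signal of 1.37 (mean of the libraries) against 0.476 and 0.436. Of the 108, 67 lay in introns, 4 in exons, 13 upstream and 24 downstream of the gene. They were spread over 26 of the 39 genes.

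**Figure D3:**
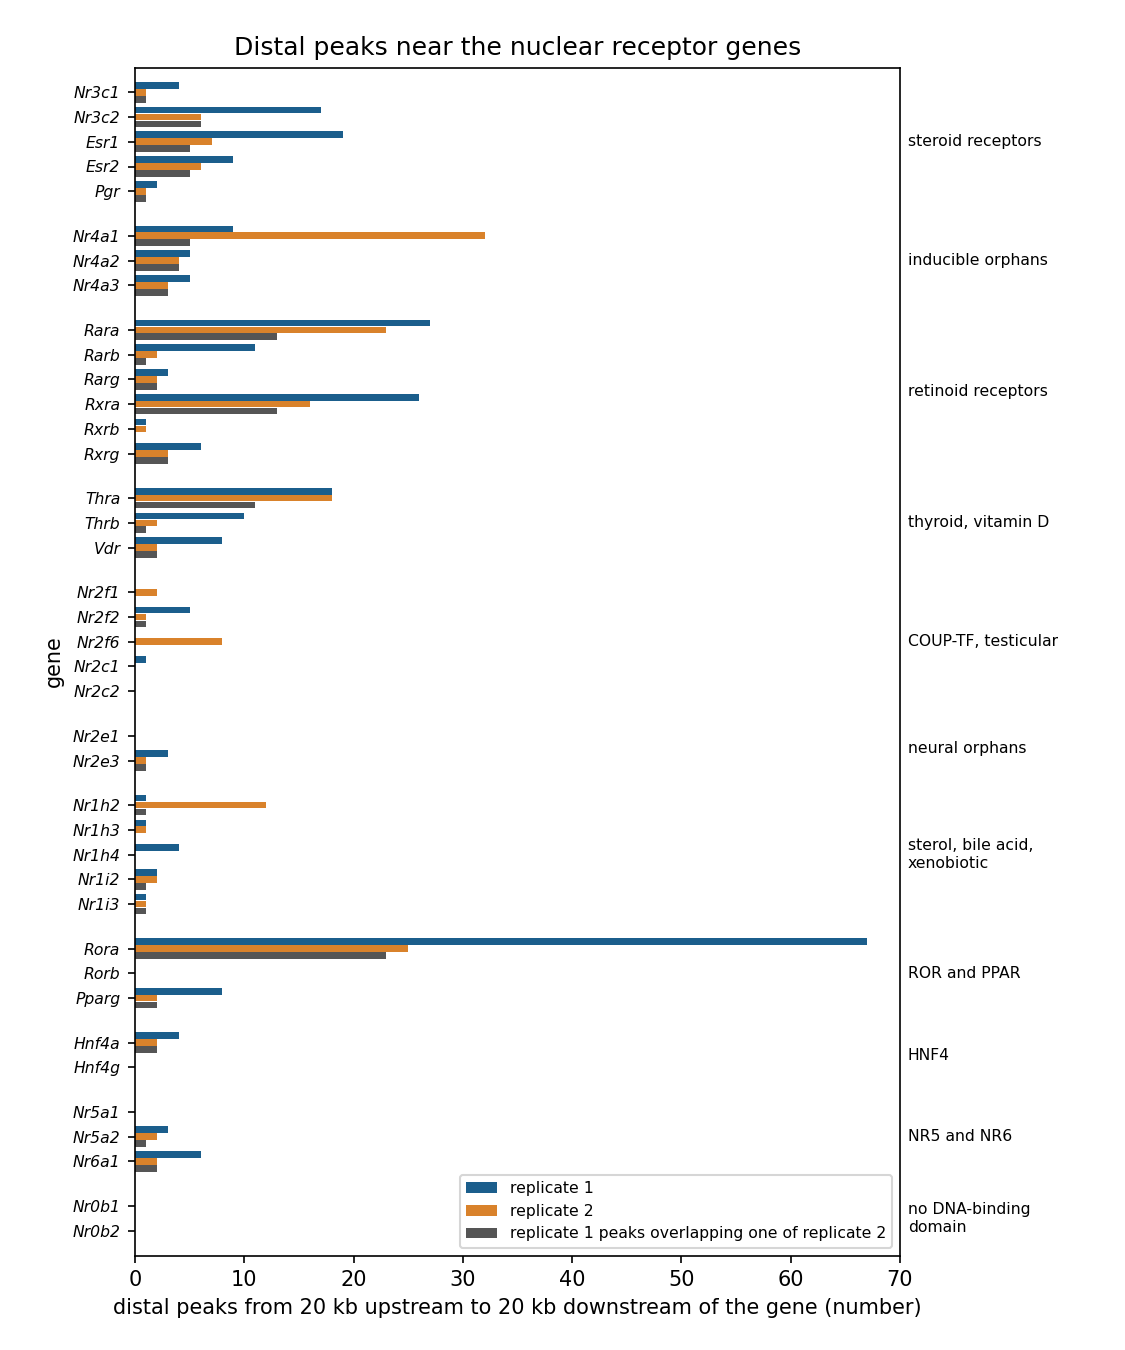
Number of distal peaks from 20 kb upstream to 20 kb downstream of each of the 39 receptor genes in replicate 1, in replicate 2, and replicate 1 peaks that overlap one of replicate 2 (bars from 0). Rora has 67 in replicate 1, and Nr4a1 has 32 in replicate 2 but 9 in replicate 1.

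Rora had the most distal peaks, 67 in replicate 1 and 25 in replicate 2, with 23 shared, over a gene of 734 kb. Rara and Rxra, the widely made retinoid receptor genes, had 13 shared distal peaks each, over 47.1 and 86.5 kb. Thra had 11 over 28.4 kb, Nr3c2 had 6, and Esr1, Esr2 and Nr4a1 had 5 each. Nr2c2, whose promoter peak was the strongest, had no distal peak in either library.

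The strongest distal peaks near the family lay downstream of Thra, where the gene for the clock repressor Nr1d1 runs on the opposite strand. The highest had a signal of 15.7 in replicate 1 and 9.70 in replicate 2, stood 4.99 kb past the end of Thra, and is inside Nr1d1, 1.34 kb from its nearest start. By the mean of the libraries, the next had 8.96 and 5.84 at 14.5 kb past Thra, and the third had 7.57 and 6.96 at 18.1 kb, although in replicate 2 the third was the higher of them. The third lies 8.47 kb from a start of Msl1, and none of the 3 has Thra as the nearest start of a protein-coding gene. The first of them exceeded the Thra promoter itself, at 3.08 and 2.56, in both libraries.

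Clock E-boxes (CACGTG), bound by the circadian activators BMAL1 and CLOCK, were covered over at least 50% of their bases by footprints of both libraries at 3 places near receptor genes, all downstream of Thra. A pair lay in the peak inside Nr1d1, at chr11:98773863-98773890 and chr11:98774143-98774170, and one in the next peak, at chr11:98783531-98783558 (mm10, plus strand). They are shown with the E-box in capitals. Of all 26080 shared distal peaks, 3.29% held this hexamer within the central 150 bp, against 6 of the 111 near receptor genes. The pair inside Nr1d1 lies outside that central stretch, at -104 and 176 bases from the peak centre. A further match in the same peak, at -119 bases, had 0 bases in a footprint in replicate 1 and 6 in replicate 2. The share under footprints over all peaks was not computed.
Nr1d1 first E-box: tgtgcccctcgCACGTGgcaccccaacg
Nr1d1 second E-box: aacaaatgcagCACGTGggcccggctct
Thra downstream E-box: agggggtggggCACGTGgccctgcccga

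The strongest distal peak of the retinoid genes lay in an intron of Rara, 23.7 kb from its 5′ end, and was level between the libraries at 6.07 in replicate 1 and 6.08 in replicate 2. It holds 3 matches to CAGCTG, an E-box that MyoD-type factors bind in muscle, and is shown because 2 of them lie under footprints of both libraries, which are in capitals (mm10, chr11:98951466-98951615, plus strand). These begin at bases 4 and 68 of the printed stretch, and the third match lies beyond its end, with no base in a footprint of either library. This E-box was found in 35 of the 111 distal peaks near receptor genes (31.5%, Wilson 95% interval 23.6 to 40.7%), against 21.6% of all shared distal peaks. The peaks share genes, so they are not independent.
Rara intronic peak: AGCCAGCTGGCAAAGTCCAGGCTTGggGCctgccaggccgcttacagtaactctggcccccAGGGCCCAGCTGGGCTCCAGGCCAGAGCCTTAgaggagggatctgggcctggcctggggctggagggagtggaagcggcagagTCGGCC

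Upstream of the inducible genes, a peak 7.79 kb before Nr4a1 had 7.05 in replicate 1 and 5.65 in replicate 2, near the level of the Nr4a1 promoter. A pair of peaks before Nr4a3, at 1.68 and 2.07 kb, had 6.76 with 5.38, and 5.27 with 5.92. An MEF2 match lay between the centres of that pair, 1.89 kb before the gene, with no base in a footprint of either library. The nearer Nr4a3 site exceeded the Nr4a3 promoter in both libraries.

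Other groups had distal peaks of middle strength. Rxrg had one 5.45 kb past the end of the gene with 4.50 in replicate 1 and 5.02 in replicate 2, above its promoter signal of 1.80 and 1.15. Hnf4a, which had no promoter peak, had intronic peaks with 2.34 and 4.14, and 1.58 and 2.68, in sequence that also belongs to the antisense gene Hnf4aos. For Nr1i3 the single site, 2.55 and 2.83, lies inside Tomm40l, whose start is 1.18 kb away. For Esr2 the strongest site, 2.59 and 1.38, lies inside Syne2. The strongest shared site of Nr2f2 had 1.82 and 2.59, and that of Nr6a1 had 1.45 and 0.991. Of these sites, the ones of Rxrg and Nr6a1 lay in no other annotated gene.

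The receptor hexamer itself was not more frequent near these genes than elsewhere. The letters AGGTCA were searched, along with GGGTCA as a variant, AGTTCA as a second variant and GGTTCA as a further one, on either strand within the central 150 bp of a peak. By this count 16 of 91 shared promoter peaks of receptor genes held one (17.6%), against 18.2% of all promoter peaks. Of distal peaks, 27 of 111 did (24.3%, Wilson 95% interval 17.3 to 33.1%), against 28.0% of all. No direct repeat with 1, 2, 4 or 5 bases between the hexamers was found in either set in that window. Over whole peaks, footprints of both libraries covered at least 50% of the hexamer at 7 of 51 matches in distal peaks. In promoter peaks they did so at 0 of 36. The 7 were near Thra (2), Nr4a1 (2), Rora (2) and Esr2 (1). Matches were counted for each peak, so a hexamer in overlapping peaks, as at the Esr1 promoter, counts more than once. The share under footprints over all peaks was not computed.

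The hexamers in the Thra, Nr4a1 and Rora windows are shown in capitals, with 1 of the 2 of Rora, the one that reads AGGTCA (all mm10). A window of 20 kb reaches beyond the receptor gene itself, and both Thra sites and the upstream Nr4a1 site are nearer to starts of other genes. The Thra sites are at chr11:98783414-98783441 and chr11:98786966-98786993 on the plus strand. The Nr4a1 sites are at chr15:101237064-101237091 on the minus strand and chr15:101260500-101260527 on the plus strand. The Rora site shown is at chr9:68757157-68757184 on the plus strand. A match is a description of the letters and does not show which factor was bound.
Thra downstream hexamer 1: gcgggctgcccGGGTCAcatggcacggg
Thra downstream hexamer 2: ctctccattcaGGGTCAtcctaagttgt
Nr4a1 upstream hexamer: gccaccaccagGGGTCAgcaccctgctc
Nr4a1 intronic hexamer: gcatgggcccaGGGTCAtgctcactctg
Rora intronic hexamer: atgcaggctcaAGGTCAaggggcacaca

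Among the other motifs, the GC box (GGGCGG) was found in 41 of 91 promoter peaks of receptor genes (45.1%) against 48.1% of all, and in 20 of 111 distal peaks (Wilson 95% interval 12.0 to 26.2%) against 10.2% of all. Here too the peaks share genes and are not independent, which the interval does not allow for. The cyclic AMP response element TGACGTCA was covered by footprints of both libraries at 1 promoter, that of Nr6a1, and at 1 distal site, downstream of Rxra. In the 300 bp around the peak centre, 1 of 91 promoter peaks of receptor genes held it, against 2.56% of all. Of distal peaks, 2 of 111 held it, against 0.617% of all. Its share under footprints over all peaks was not computed. The element is shown for Rxra at chr2:27774595-27774624 (mm10, plus strand).
Rxra downstream element: gaccacgccgcTGACGTCAgtgggaaacta

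Between the libraries, promoter signals were compared as the log2 ratio of replicate 1 over replicate 2, centred on the median of all 13818 genes with a peak in both, which was 0.12. The SD of the centred ratio over all genes was 0.43, and 1.98% of genes lay beyond 1. Of the 30 receptor genes 15 lay above 0 and 15 below. The highest were Nr3c2 (0.65), Rxrg (0.52) and Thrb (0.49), and the lowest were Nr2f2 (-1.92), Pgr (-1.34) and Pparg (-0.94). With the 2.5 kb window the Nr2f2 value became 0.14, and that of Pgr stayed at -1.34.

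Over all genes the direction varied with the level of the promoter, and the weakest and the strongest receptor genes differed in the same way. Of the 10 receptor genes in the weakest of 4 equal classes of mean signal, 8 were lower in replicate 1 after centring, as were 76.3% of all genes in that class. In the strongest class 1 of 6 receptor genes was lower, namely Nr3c1, and 25.8% of all genes. The classes between did not follow that order in receptor genes, with 2 of 7 lower in the second weakest (57.6% of all genes) and 4 of 7 in the next (40.4% of all genes). The libraries differ in depth, and the part of depth in this pattern was not tested.

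**Figure D4:**
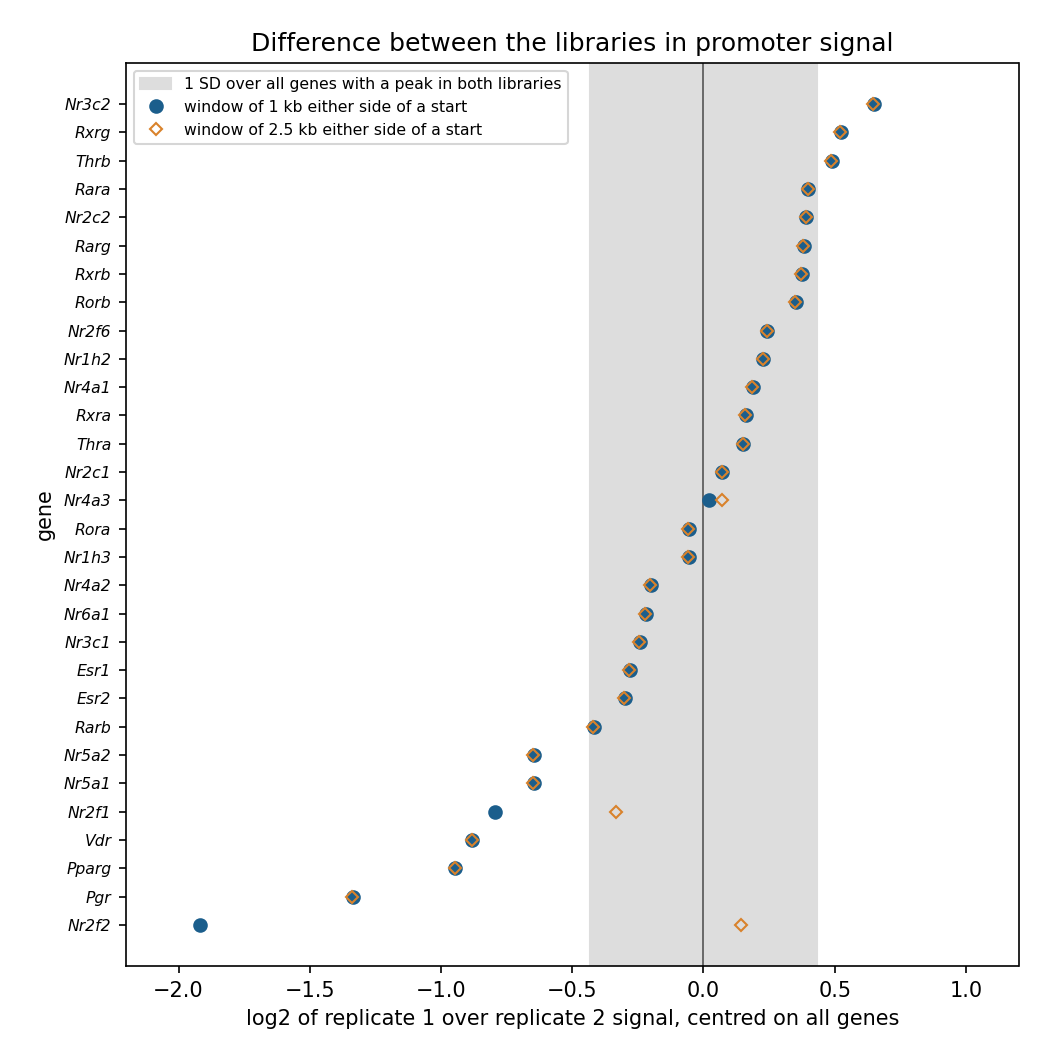
Log2 ratio of replicate 1 over replicate 2 promoter signal, centred on all genes, for the 30 receptor genes with a peak in both libraries, ordered by value; filled circles use windows of 1 kb and open diamonds windows of 2.5 kb around each start, and the grey band is 1 SD (0.43) over all genes. Nr2f2 moves from -1.92 to 0.14 between the windows, and Nr2f1 from -0.79 to -0.33.

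Distal peak numbers differed between the libraries at some receptor genes. At least 5 more distal peaks in replicate 2 than in replicate 1 were found at Nr4a1 (9 and 32), Nr2f6 (0 and 8) and Nr1h2 (1 and 12), against 1.29% of all genes. At least 5 more in replicate 1 were found at 8 receptor genes (Nr3c2, Esr1, Rarb, Rxra, Thrb, Vdr, Rora and Pparg), against 7.80% of all genes. All 8 were in the longest class of gene length. Genes of that class had a median of 4 distal peaks in replicate 1, against 1 in the shortest class. The share of 7.80% was not computed within classes of length. The additional replicate 2 peaks at the first 3 genes stood close together. After leaving out windows of 10 kb that hold 8 or more peaks of a library, a choice made after these counts were seen, the replicate 1 and replicate 2 counts were 9 and 8 at Nr4a1, 0 and 1 at Nr2f6, and 1 and 2 at Nr1h2. Those at Rxra fell from 26 and 16 to 13 and 11, so it no longer had at least 5 more in replicate 1. Those at Thra went from 18 and 18 to 6 and 14, which gave it at least 5 more in replicate 2. Such windows held 2.10% of the peaks of replicate 1 and 5.82% of those of replicate 2.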

How the data were processed

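Accessible chromatin was measured by DNase-seq in 2 libraries, described with the report's opening. The signal of each peak is the authors' deposited value, and per the labels all lists are on mm10. Signals are whole multiples of a step (within 0.1 of a whole number), read as tags per 1000000, which no source states. The per-position q-value is as deposited, listed below 0.05, and footprints carry a constant 0.01, so could not be ranked. For the aligner, the callers and their versions: not given in the sources used here.

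Positions were joined to GENCODE M21 on GRCm38, the assembly of mm10, with an overlap of at least 1 bp. The longer of the 2 peak lists of each library was used. Libraries were compared by the highest promoter signal of a gene. Sequences come from the RefSeq GRCm38 genome, which is C57BL/6J, so CAST/EiJ alleles are not shown. RefSeq promoters matched 35 of the 39 members. The members, lists and motifs were chosen with earlier results of these data known. All members are named, and so are the comparison receptors except for some that are not reported here, other lists by their 3 highest mean percentiles of promoter signal, and distal peaks by strength. Intervals are Wilson 95% intervals. Python 3.11.15 with numpy 2.4.6, pandas 2.3.3, scipy 1.17.1 and matplotlib 3.10.9 was used, and the overlap and motif functions were tested on simulated data.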

Additional observations from a re-analysis of the deposited data

How the results depend on the processing

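The count of receptor genes whose promoter held a peak in each library was 30 (76.9%, against 63.0% of all genes). At the 5′ end of the gene alone it was 23, or 59.0% against 58.5%, which left almost no difference from all genes. Under the other alternatives it was 28 to 31, against 57.7 to 65.2% of all genes, with 30 and 31 when each library was used alone. The median promoter signal, 3.43 as the mean of the libraries, was 7.47 with the peak signals of a promoter summed and 2.35 at the 5′ end alone. It was 2.96 and 3.91 with one library left out. The number with a shared footprint, 27, ranged from 26 to 27, and was 30 in either library alone. The 11 genes with at least 3 shared distal peaks became 19 with 50 kb on either side (33.6% of all genes) and 7 with the stricter peak list (7.07% of all genes), and were 13 to 23 with one library left out. The share of peaks with a receptor hexamer rose to 30.8% of promoter and 42.3% of distal peaks with 300 bp in place of 150, against 35.1% and 49.3% of all peaks, so it stayed below that of all peaks in both. The number of genes higher in replicate 1, 15, ranged from 13 to 17. Leaving out crowded windows, requiring overlap of 50% of the shorter peak, and the 2.5 kb window for the difference between libraries were chosen after seeing the data. No paired analysis was possible because there is 1 group only. With 2 libraries the spread between libraries rests on 1 degree of freedom, weak peaks depend on depth, and peaks near a window edge, as at Nr2f2, can change class.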
